A study of Mus musculus with 11 samples.

Results

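The Cyp4 enzymes examined here were 10 liver-expressed mouse cytochrome P450 genes of the fatty acid omega-hydroxylase family: Cyp4a10, Cyp4a12a, Cyp4a12b, Cyp4a14, Cyp4a31, Cyp4a32, Cyp4f13, Cyp4f14, Cyp4f15 and Cyp4v3. The set is a chosen list of gene names that leaves out other Cyp4 genes, among them Cyp4f17, which is described below. All 10 were found among the 54232 Ensembl gene identifiers of the hepatocyte RNA-Seq count tables. All 10 also passed the filter on low counts that left 13303 genes to be tested. RNA was measured in hepatocytes isolated from adult male C57BL/6 mice with or without liver XBP1, to learn how the unfolded protein response in these cells bears on diet-induced steatohepatitis. Control mice carried the floxed alleles alone (Xbp1 fl/fl), and knockout mice (Xbp1 LKO) had liver-specific Xbp1 deletion through Cre under the albumin promoter. Feeding lasted up to 6 weeks, on regular chow or on the HFS (high fat sugar) regimen of Western diet plus fructose and glucose in the drinking water. The 11 libraries comprise 3 for Xbp1 fl/fl on chow, 2 for Xbp1 LKO on chow, and 3 for either genotype on the HFS diet. Single mice were used on chow and pools of 2 mice on the HFS diet, so diet and pooling cannot be told apart.

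Omega-hydroxylases place a hydroxyl group on the methyl end of a fatty acid. Alcohol and aldehyde dehydrogenases then turn that end into a second carboxyl group, and the dicarboxylic acid is shortened in peroxisomes. The route is a minor outlet for fatty acids in a fed liver and is known for rising when mitochondrial oxidation is overloaded or when the lipid-sensing receptor PPARα is active. Cyp4a10 and Cyp4a14 are classical PPARα target genes, Cyp4a12a and Cyp4a12b are known as male-predominant genes of mouse kidney and liver, and the Cyp4f enzymes also hydroxylate leukotrienes and other eicosanoids.

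Total counts were 19191032 to 23888401 per library. Xbp1 itself was at 95.7 to 135 CPM in the 5 Xbp1 LKO libraries and at 194 to 301 CPM in the 6 Xbp1 fl/fl libraries, so the genotypes did not overlap (a whole-gene count also holds transcript outside the deleted exon). The cells carried hepatocyte markers, none of which was at 0 in any library, but the summed level of the 21 markers was 94030 to 150200 CPM in Xbp1 LKO libraries against 196800 to 236700 CPM in Xbp1 fl/fl libraries. Much of this sum is Alb, at 14020 to 51480 CPM in Xbp1 LKO against 64340 to 119400 CPM in Xbp1 fl/fl libraries. On chow 19 of the 21 had a negative log2 fold change between genotypes (median -0.61), among them Hnf4a and Cyp2e1 at -0.079. The exceptions were Apoe at 0.016 and Cyp7a1 at 0.92 (SE 0.71). No list of other liver cell types stood at 0 throughout: none of the 15 endothelial or 15 macrophage markers was at 0 in any library, while 3 of 15 stellate cell markers and 7 of 10 cholangiocyte markers, among them Krt19, Krt7 and Epcam, were at 0 in some library. In bulk RNA, fewer cells of a type and less RNA per cell cannot be told apart. CPM are counts expressed per 1000000 counts of the library, after correction of its total with TMM factors, which assume that most genes do not differ between libraries.

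The 6 Cyp4a genes lie in 1 cluster of 322.6 kb on chromosome 4 of GRCm38, in the order Cyp4a12a (115299046 to 115332815), Cyp4a12b (115411624 to 115439034), Cyp4a14 (115486200 to 115496142), Cyp4a10 (115518264 to 115533649), Cyp4a31 (115563649 to 115579015) and Cyp4a32 (115600969 to 115621602). Cyp4a14 is transcribed from the minus strand and the other 5 from the plus strand. Cyp4f15 (32685627 to 32703352, plus strand), Cyp4f14 (32905070 to 32917342, minus strand) and Cyp4f13 (32924688 to 32947402, minus strand) lie within 261.8 kb of chromosome 17. Cyp4v3 lies alone on chromosome 8 from 45304944 to 45333216, on the minus strand.

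Several of these genes are near-copies of each other, which matters because the reads were 50 bases long. Coding sequences of Cyp4a12a and Cyp4a12b were 98.5% identical, differing at 23 of 1527 aligned positions. Cyp4a10 was 97.2% identical to Cyp4a32 and 96.6% identical to Cyp4a31, and Cyp4a31 was 96.0% identical to Cyp4a32. Cyp4a14 was apart from the others of its cluster at 74.6% to 75.8% identity. Of all 50-base stretches in the annotated transcripts of a gene, the share found in no other gene was 51.1% for Cyp4a12a, 50.6% for Cyp4a12b, 56.2% for Cyp4a32, 70.2% for Cyp4a10 and 79.5% for Cyp4a31, against 99.8% for Cyp4a14. It was 97.6% to 98.9% for the 3 Cyp4f genes and 93.0% for Cyp4v3. Counts of Cyp4a14, the Cyp4f genes and Cyp4v3 thus rest almost wholly on sequence of their own, while those of the other 5 Cyp4a genes depend on how shared reads were handled.

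The sequences below show what a read had to resolve. The first 3 lines are the same 60 coding bases in exon 9 of Cyp4a31 (chr4:115571315-115571374), Cyp4a32 (chr4:115611574-115611633) and Cyp4a10 (chr4:115525855-115525914), and capitals mark the 7 positions at which the copies are not all alike. This stretch was chosen because Cyp4a31 differs there from both other copies at 6 positions, so that a read from it names its gene.
Cyp4a31: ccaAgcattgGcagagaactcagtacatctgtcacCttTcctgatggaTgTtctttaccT
Cyp4a32: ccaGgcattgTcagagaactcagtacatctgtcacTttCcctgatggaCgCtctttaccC
Cyp4a10: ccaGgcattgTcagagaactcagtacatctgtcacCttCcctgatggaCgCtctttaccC

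The next lines are 60 coding bases in exon 6 of Cyp4a12a (chr4:115326628-115326687) and Cyp4a12b (chr4:115432881-115432940), with capitals at the 4 positions that differ. They are among the 23 coding positions that separate the pair, whose longest run of identical coding bases was 342.
Cyp4a12a: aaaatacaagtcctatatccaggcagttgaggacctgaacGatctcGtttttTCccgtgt
Cyp4a12b: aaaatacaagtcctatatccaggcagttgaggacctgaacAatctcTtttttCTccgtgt
All windows are on the plus strand of GRCm38, read 5′ to 3′ from GENCODE M21 transcripts.

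Per kilobase of exon, which puts genes of different length on 1 scale, the members fell into a high and a low set. In chow-fed Xbp1 fl/fl hepatocytes the order of mean levels was Cyp4a10 (154.8 ± 44.9 CPM per kb, SD, n = 3), Cyp4f14 (124 ± 16.8), Cyp4v3 (115 ± 22.8), Cyp4a14 (114 ± 56.7), Cyp4a12a (93.3 ± 56.1) and Cyp4f15 (93.2 ± 7.87), then Cyp4a32 (24.3 ± 11.9), Cyp4f13 (19.1 ± 1.38), Cyp4a12b (15.5 ± 9.24) and Cyp4a31 (6.48 ± 2.58). Only Cyp4f15 and Cyp4a32, the neighbours at the break between the sets, did not overlap in their library values. The same 6 genes had the highest means in the other 3 groups, but in HFS-fed Xbp1 fl/fl mice the break was not there, since Cyp4a12a (42.3 to 79.2 CPM per kb) overlapped Cyp4a12b (25.4 to 43.9 CPM per kb). The order of the 6 was not the same: Cyp4a14 had rank 4 in chow-fed Xbp1 fl/fl mice, rank 5 in HFS-fed Xbp1 fl/fl mice (91.1 ± 44.8 CPM per kb, n = 3) and rank 1 in both Xbp1 LKO groups (189 ± 77.5, n = 2, on chow and 235.5 ± 10.6, n = 3, on the HFS diet). In HFS-fed Xbp1 LKO hepatocytes its lowest library was above the highest library of the next gene, Cyp4f14. Cyp4a31 had the lowest mean per kb in every group. In HFS-fed Xbp1 LKO mice its libraries (6.30 to 13.9 CPM per kb) overlapped those of Cyp4a32 (12.4 to 16.2). In plain CPM its mean there was 27.6, above the 22.4 of Cyp4a32, whose annotated exons span 1536 bases against 2509 for Cyp4a31.

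**Figure D1:**
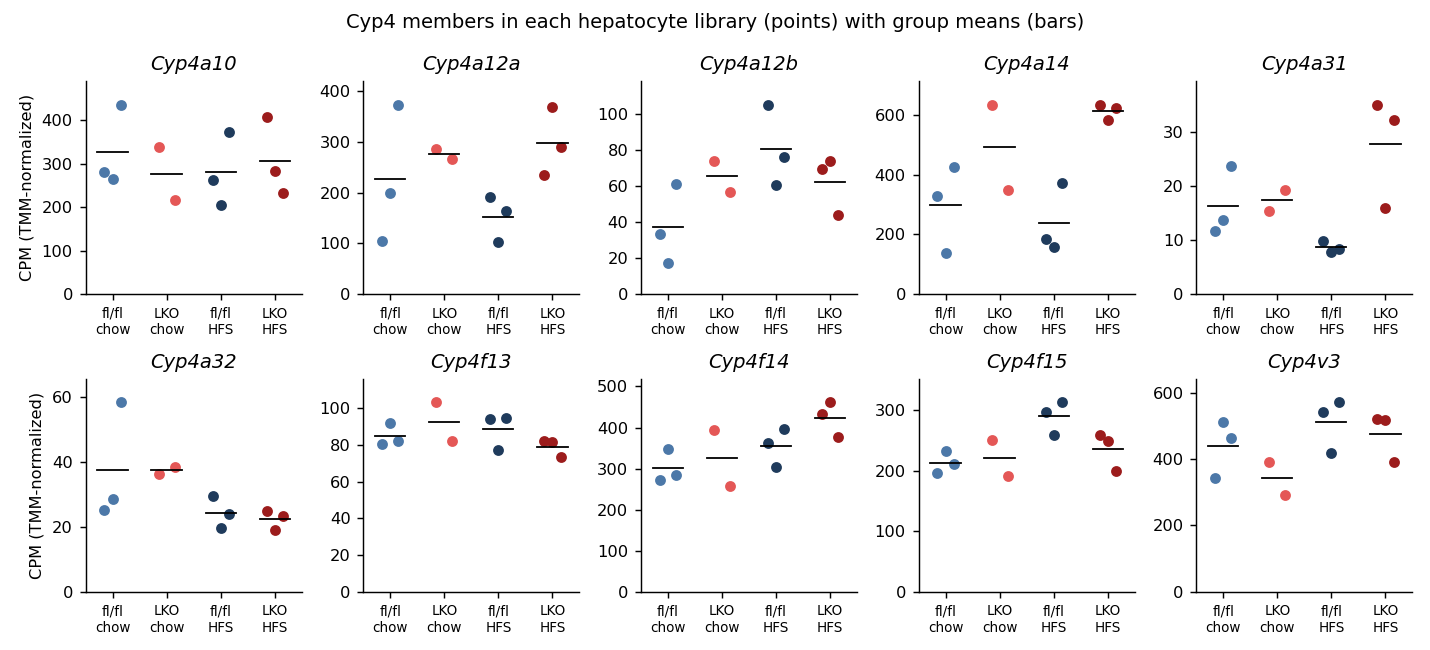
CPM of the 10 Cyp4 members (1 panel each, linear axis from 0) in every library of the 4 groups, with points for libraries and bars for group means. The 3 HFS-fed Xbp1 LKO libraries sit together between 581 and 633 CPM for Cyp4a14, and all 3 lie above the 3 HFS-fed Xbp1 fl/fl libraries for Cyp4a31.

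The first question was how these genes differed with loss of XBP1 in mice on the HFS diet. With edgeR (quasi-likelihood test, p values adjusted by Benjamini-Hochberg over all genes tested, threshold 0.05), 1 of the 10 members was called, Cyp4a31, and it was higher. For all genes tested the share called in this comparison was 4.08% in either direction and 1.92% in the higher direction. The median log2 fold change of the members was 0.016, against 0.0083 for all genes. By direction 5 members were positive and 5 negative, or 8 and 2 when library totals replaced TMM factors, a scaling that moved the median of all genes to 0.27 on this diet and to 0.33 on chow. At an unadjusted p under 0.05 there were 3 members (2322 of all genes).

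Cyp4a31, the member with the lowest means per kilobase, was at 9.76, 7.79 and 8.33 CPM in the HFS-fed Xbp1 fl/fl libraries and at 34.9, 15.8 and 32.1 CPM in the HFS-fed Xbp1 LKO libraries, which are 153 to 205 and 425 to 858 counts. Every Xbp1 LKO library was above every Xbp1 fl/fl library, and the second Xbp1 LKO library was the nearest to them. The log2 fold change was 1.68 (SE 0.31, 95% interval 0.99 to 2.36), a fold of 3.20, with an edgeR adjusted p = 0.0138. Over 14 alternatives the edgeR or DESeq2 adjusted p ranged from 2.9e-18 (edgeR without the filter on low counts) to 0.797, and 10 of them called the gene. The 0.797 is the edgeR value of the summed near-copies given below. With Cyp4a31 counted alone the highest adjusted p was 0.0601, in edgeR. Some single libraries decided the call: without the second or the third Xbp1 fl/fl library, or without the third Xbp1 LKO library, the log2 fold change was 1.61, 1.65 and 1.55 and the edgeR adjusted p 0.057, 0.0601 and 0.0514. When the counts of the near-copies Cyp4a10, Cyp4a31 and Cyp4a32 were added before the fit, the sum had a log2 fold change of 0.19 (SE 0.27, edgeR adjusted p = 0.797), since Cyp4a10 makes up most of it.

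The closest relatives of Cyp4a31 had other values. Cyp4a32 was at 29.3, 19.7 and 23.9 CPM in HFS-fed Xbp1 fl/fl libraries and at 24.9, 19 and 23.2 CPM in HFS-fed Xbp1 LKO libraries, which overlap (log2 fold change -0.12, SE 0.27, edgeR adjusted p = 0.885). Cyp4a10 was at 261, 205 and 374 CPM and at 406, 283 and 231 CPM in the same order, also overlapping (0.13, SE 0.29, 95% interval -0.50 to 0.76, edgeR adjusted p = 0.88). The ratio of Cyp4a31 to Cyp4a32 counts within a library was 0.83 to 1.40 in the 3 HFS-fed Xbp1 LKO libraries and 0.33 to 0.50 in the other 8. This ratio and those that follow were chosen after the values were seen and carry no test.

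Cyp4a14, a PPARα target whose counts rest on sequence of its own, was at 183, 157 and 371 CPM in HFS-fed Xbp1 fl/fl libraries and at 633, 581 and 623 CPM in HFS-fed Xbp1 LKO libraries. The groups did not overlap, and the Xbp1 LKO libraries lay close together while the third Xbp1 fl/fl library stood well above the other two. The log2 fold change was 1.37 (SE 0.41, 95% interval 0.47 to 2.27), a fold of 2.58, and missed the threshold with an edgeR adjusted p = 0.0924. It passed in edgeR when only the 6 HFS libraries were fitted (1.37, adjusted p = 0.0335) and when library totals replaced TMM factors (1.63, adjusted p = 0.0265). It also passed in edgeR with a block for replicate number (adjusted p = 0.0253) and without the filter on low counts (adjusted p = 1.95e-10). DESeq2 gave an adjusted p of 0.0541. Of 14 alternatives 4 called the gene, and the edgeR or DESeq2 adjusted p ranged from 1.95e-10 to 0.266.

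Cyp4a12a, an arachidonic acid hydroxylase known for its dependence on androgen, was at 192, 102 and 163 CPM in HFS-fed Xbp1 fl/fl libraries and at 234, 368 and 290.4 CPM in HFS-fed Xbp1 LKO libraries. These also did not overlap, at a log2 fold change of 0.96 (SE 0.38, 95% interval 0.14 to 1.79) that missed the threshold (edgeR adjusted p = 0.206). Its near-copy Cyp4a12b was at 105, 60.8 and 76.4 CPM and at 69.7, 74.0 and 43.7 CPM, overlapping, with a log2 fold change of -0.37 (SE 0.37, edgeR adjusted p = 0.686). Counts of the pair added together had a log2 fold change of 0.63 (SE 0.35, edgeR adjusted p = 0.407).

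The Cyp4f genes and Cyp4v3 differed less. Cyp4f15, an eicosanoid hydroxylase, was at 297.5, 259 and 313 CPM in HFS-fed Xbp1 fl/fl libraries and at 259, 249 and 199.5 CPM in HFS-fed Xbp1 LKO libraries. The highest Xbp1 LKO library lay just under the lowest Xbp1 fl/fl library, with a log2 fold change of -0.30 (SE 0.15, 95% interval -0.62 to 0.023, edgeR adjusted p = 0.332). Cyp4f14, a leukotriene hydroxylase, was at 363, 305 and 396 CPM and at 434, 461 and 377 CPM (0.26, SE 0.18, edgeR adjusted p = 0.524). Cyp4f13 was at 77.1 to 94.9 CPM and 73.4 to 82.0 CPM (-0.17, SE 0.12, edgeR adjusted p = 0.563), and Cyp4v3, the mouse counterpart of a human medium-chain fatty acid hydroxylase, at 419 to 571 CPM and 392 to 519.5 CPM (-0.10, SE 0.19, 95% interval -0.53 to 0.33, edgeR adjusted p = 0.862). For these 4 genes the intervals of the difference reached no further than 0.65 in either direction on the log2 scale. In all, 4 members did not overlap between the genotypes on the HFS diet, 3 of them higher, where 26.1% of all genes tested did not overlap and 13.6% were higher without overlap.

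Cell type markers moved in the same libraries. The summed hepatocyte markers were 115200 to 150200 CPM in HFS-fed Xbp1 LKO against 196800 to 218700 CPM in HFS-fed Xbp1 fl/fl libraries, and the summed macrophage markers 65.9 to 115.5 CPM against 47.1 to 65.7 CPM. Of the hepatocyte markers 1 of 21 passed the test and was lower (Apoa1), and 20 of 21 had a negative log2 fold change, with a median of -0.58. At an unadjusted p under 0.05 there were 11 of them, and DESeq2 called 9, all lower. Of the macrophage markers edgeR and DESeq2 called 0 of 15, with 1 at an unadjusted p under 0.05, and 14 of 15 were positive. The 15 endothelial markers were all negative (median -0.39), with 0 called by edgeR or DESeq2 and 0 at an unadjusted p under 0.05. The part of these marker changes in the Cyp4 values was not tested.

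**Figure D2:**
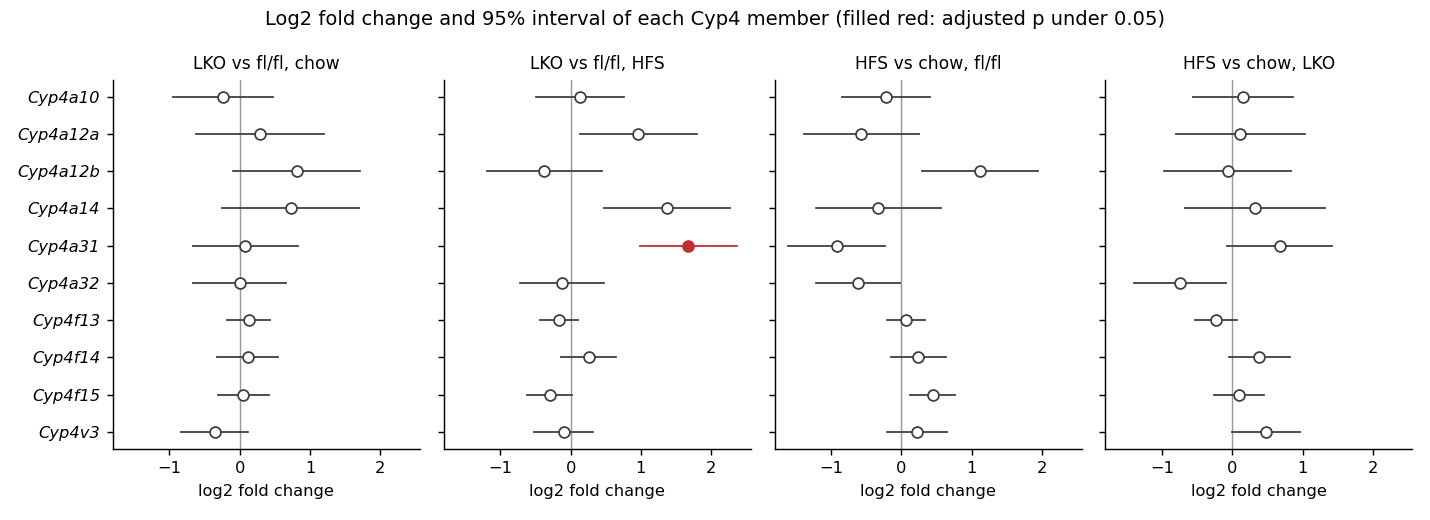
Log2 fold change (points) and 95% interval (lines) of each Cyp4 member from edgeR in 4 comparisons, with filled red where the adjusted p was under 0.05. Cyp4a31 in Xbp1 LKO against Xbp1 fl/fl on the HFS diet (1.68) is the sole filled point; the intervals of the Cyp4f genes and Cyp4v3 are narrow and those of the Cyp4a genes wide.

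On chow, the same contrast of genotypes called 0 of the 10 members, where 4.75% of all genes tested were called. At an unadjusted p under 0.05 there were also 0 members (2561 of all genes), and DESeq2 called 0. The median log2 fold change of the members was 0.097, with 8 positive and 2 negative (9 and 1 with library totals, 7 and 3 with DESeq2), and all 10 overlapped between the groups (31.3% of all genes did not). With 2 Xbp1 LKO libraries, the SE of every member was larger here than on the HFS diet.

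Cell type markers moved in the chow libraries too. The summed hepatocyte markers were 94030 and 134700 CPM in chow-fed Xbp1 LKO against 215700 to 236700 CPM in chow-fed Xbp1 fl/fl libraries, with 3 of 21 called by edgeR (Alb, Serpina1a and Serpina1b) and 7 by DESeq2, all lower. The summed endothelial markers were 43.6 and 55.8 CPM against 71.9 to 183 CPM, and the summed stellate cell markers 17.4 and 20.1 CPM against 24.7 to 81.9 CPM. Of these, edgeR called 0 of 15 and 0 of 13 tested, with 13 and 5 at an unadjusted p under 0.05, and DESeq2 called 10 and 3, all lower. The 15 macrophage markers were all negative (median -0.48), with 0 called by edgeR or DESeq2 and 0 at an unadjusted p under 0.05. The part of these marker changes in the Cyp4 values on chow was not tested.

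Cyp4a14 was at 328, 137 and 427 CPM in Xbp1 fl/fl and at 634 and 349 CPM in Xbp1 LKO hepatocytes on chow. The second Xbp1 LKO library fell inside the Xbp1 fl/fl range (log2 fold change 0.73, SE 0.44, 95% interval -0.25 to 1.70, edgeR adjusted p = 0.415). Cyp4a12b was at 33.1, 17.3 and 61.0 CPM and at 74.1 and 56.8 CPM (0.81, SE 0.41, edgeR adjusted p = 0.313), the second Xbp1 LKO library again inside the Xbp1 fl/fl range. Cyp4a12a ranged from 105 to 373 CPM among the chow-fed Xbp1 fl/fl mice and was at 285 and 265 CPM in chow-fed Xbp1 LKO mice (0.28, SE 0.42, 95% interval -0.63 to 1.19, edgeR adjusted p = 0.766).

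Cyp4a31 stood at 11.6, 13.6 and 23.6 CPM in Xbp1 fl/fl and at 15.3 and 19.2 CPM in Xbp1 LKO mice on chow (log2 fold change 0.083, SE 0.34, edgeR adjusted p = 0.927). Cyp4a32 was at 25.0, 28.6 and 58.2 CPM and at 36.3 and 38.4 CPM (0.0022, SE 0.30, edgeR adjusted p = 0.999), and Cyp4a10 at 279.6, 264 and 435.5 CPM and at 337 and 216 CPM (-0.24, SE 0.32, edgeR adjusted p = 0.747). For all 3 near-copies the third chow-fed Xbp1 fl/fl library was the highest of its group, and the Xbp1 LKO libraries lay inside its range except for the second one of Cyp4a10. Cyp4v3 was at 342.5, 511 and 464 CPM and at 392 and 293 CPM (-0.36, SE 0.22, 95% interval -0.84 to 0.12, edgeR adjusted p = 0.415). The Cyp4f genes were nearest to 0, with log2 fold changes of 0.13 for Cyp4f13, 0.11 for Cyp4f14 and 0.053 for Cyp4f15 and edgeR adjusted p values of 0.676 to 0.902.

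The cluster offered a view of how neighbours compared. On the HFS diet Cyp4a14 and Cyp4a31, with Cyp4a10 between them, had the highest log2 fold changes between the genotypes, while Cyp4a10 and Cyp4a32 were near 0. The ratio of Cyp4a14 to Cyp4a10 counts was 1.56 to 2.69 in the 5 Xbp1 LKO libraries of both diets and 0.52 to 1.17 in the 6 Xbp1 fl/fl libraries, without overlap. Cyp4a14 made up 43.3% to 50.1% of the summed Cyp4a CPM in HFS-fed Xbp1 LKO libraries, 36.9% and 45.9% in chow-fed Xbp1 LKO, 23.5% to 36.5% in HFS-fed Xbp1 fl/fl and 20.7% to 41.9% in chow-fed Xbp1 fl/fl libraries. The summed Cyp4a level was 1244 to 1403 CPM in HFS-fed Xbp1 LKO libraries, above the 553 to 1016 CPM of HFS-fed Xbp1 fl/fl, and the summed Cyp4f level was 650.3 to 791.5 CPM against 641 to 803.5 CPM, which overlapped.

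**Figure D3:**
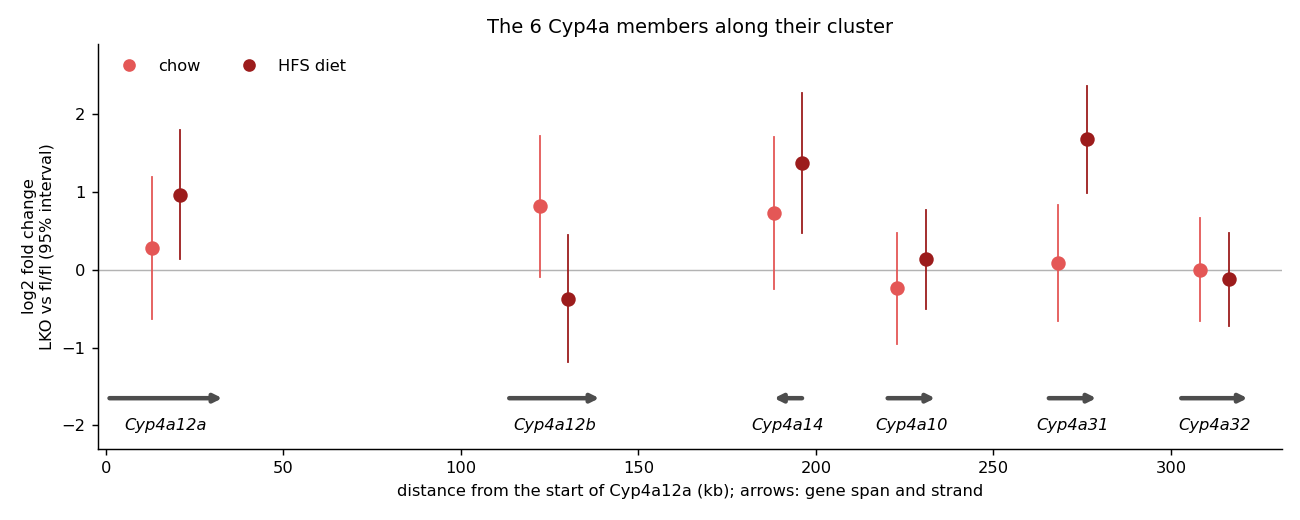
Log2 fold change of Xbp1 LKO against Xbp1 fl/fl (points, with 95% intervals as lines) for the 6 Cyp4a members at their place in the cluster, with distance in kb from the start of Cyp4a12a on the x axis and arrows for span and strand. On the HFS diet Cyp4a14 (1.37) and Cyp4a31 (1.68) stand high on either side of Cyp4a10 (0.13).

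The next question was what the HFS diet did within a genotype; these contrasts share their libraries with the ones above. In Xbp1 fl/fl hepatocytes 0 of the 10 members were called, where 0.428% of all genes tested were. At an unadjusted p under 0.05 there were 4 members (1190 of all genes), and DESeq2 called 0. The members' median log2 fold change was -0.079, with 5 positive and 5 negative, and 2 did not overlap between the diets (13.7% of all genes). All 15 endothelial and all 13 tested stellate cell markers were positive, with medians of 0.74 and 0.47. Both edgeR and DESeq2 called 0 of them, with 4 and 1 at an unadjusted p under 0.05 in edgeR. The part of these markers in the Cyp4 values was not tested.

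Of the 4 members with an unadjusted p under 0.05, Cyp4f15 was at 196, 232 and 210.3 CPM on chow and at 297.5, 259 and 313 CPM on the HFS diet, without overlap (log2 fold change 0.45, SE 0.15, 95% interval 0.12 to 0.77, edgeR adjusted p = 0.351). Cyp4a31 was at 11.6, 13.6 and 23.6 CPM on chow and at 9.76, 7.79 and 8.33 CPM on the HFS diet, also without overlap (-0.92, SE 0.31, edgeR adjusted p = 0.38). Cyp4a12b went from 33.1, 17.3 and 61.0 CPM to 105, 60.8 and 76.4 CPM, with its lowest HFS library just under the highest chow library (1.12, SE 0.38, edgeR adjusted p = 0.365). Cyp4a32 overlapped more widely, at 25.0 to 58.2 CPM and 19.7 to 29.3 CPM (-0.62, SE 0.27, edgeR adjusted p = 0.537). The PPARα targets Cyp4a10 and Cyp4a14 had log2 fold changes of -0.22 (SE 0.29, edgeR adjusted p = 0.904) and -0.33 (SE 0.40, edgeR adjusted p = 0.897).

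Cyp4a12a and Cyp4a12b stood in an unlike proportion in this group. The ratio of Cyp4a12a to Cyp4a12b counts was 1.68 to 2.13 in all 3 libraries of HFS-fed Xbp1 fl/fl mice and 3.18 to 11.6 in the other 8. The pair added together was at 163 to 297 CPM in HFS-fed Xbp1 fl/fl and 138 to 434 CPM in chow-fed Xbp1 fl/fl libraries, with a log2 fold change of -0.17 (SE 0.35, edgeR adjusted p = 0.948), so the direction of Cyp4a12b was not that of the sum.

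**Figure D4:**
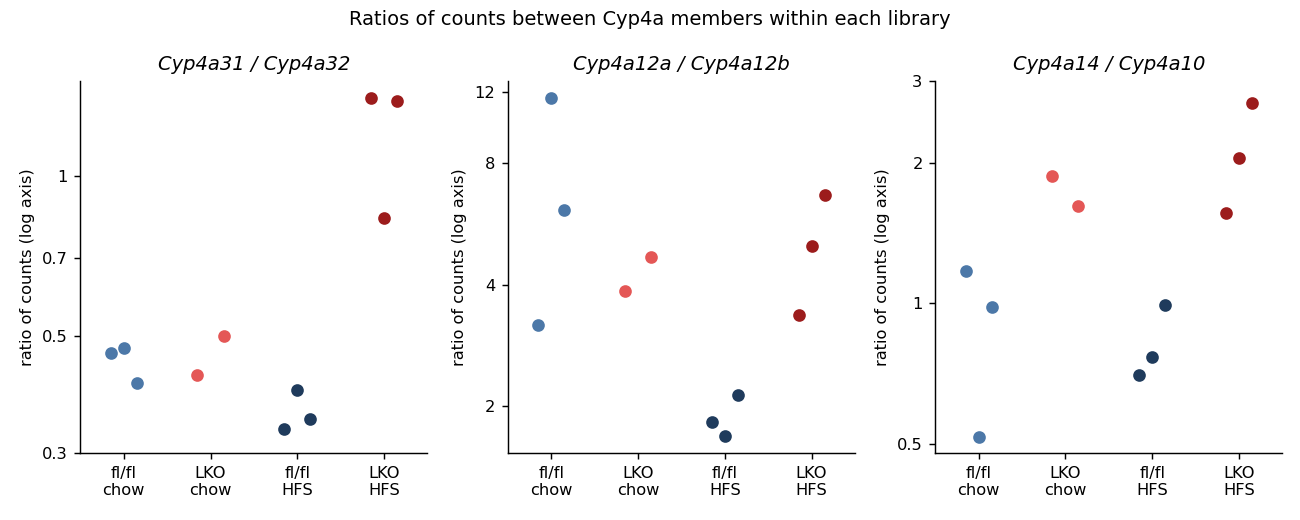
Ratio of counts between pairs of Cyp4a members within each library, on log axes, with 1 point per library. Cyp4a31 to Cyp4a32 is 0.83 to 1.40 in HFS-fed Xbp1 LKO libraries, Cyp4a12a to Cyp4a12b is 1.68 to 2.13 in HFS-fed Xbp1 fl/fl libraries, and Cyp4a14 to Cyp4a10 is 1.56 to 2.69 in the 5 Xbp1 LKO libraries, each apart from the rest.

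In Xbp1 LKO hepatocytes the HFS diet also called 0 of the 10 members, where 0.0601% of all genes tested were called. At an unadjusted p under 0.05 there was 1 member (1683 of all genes), and DESeq2 called 0. The median of the members was 0.13, with 7 positive and 3 negative, and 1 member did not overlap (31.1% of all genes). That member was Cyp4a32, at 36.3 and 38.4 CPM on chow and 24.9, 19 and 23.2 CPM on the HFS diet (log2 fold change -0.74, SE 0.30, 95% interval -1.39 to -0.086, edgeR adjusted p = 0.336). Cyp4a31 was at 15.3 and 19.2 CPM on chow and 34.9, 15.8 and 32.1 CPM on the HFS diet, overlapping through 1 HFS library (0.68, SE 0.34, edgeR adjusted p = 0.439). Cyp4v3 had a log2 fold change of 0.48 (SE 0.22, edgeR adjusted p = 0.403), Cyp4f14 0.39 (SE 0.20, edgeR adjusted p = 0.452) and Cyp4a14 0.32 (SE 0.45, edgeR adjusted p = 0.812). In these libraries the summed stellate cell markers were 17.4 and 20.1 CPM on chow and 47.9 to 96.4 CPM on the HFS diet, and the endothelial markers 43.6 and 55.8 CPM against 111 to 197 CPM. Of these markers edgeR called 0 of 13 tested stellate and 0 of 15 endothelial ones, with 10 and 15 at an unadjusted p under 0.05, and DESeq2 called 6 and 14, all higher on the HFS diet. The 15 macrophage markers were all positive (median 1.31), with 0 called by edgeR or DESeq2 and 6 at an unadjusted p under 0.05. The part of these marker changes in the Cyp4 values was not tested.

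Whether the effect of genotype differed between the diets was tested by the interaction term of the same model. It called 0 of the 10 members and 0% of all genes tested, with 1 member at an unadjusted p under 0.05 (816 of all genes); DESeq2 called 0 members and 29 genes. That member was Cyp4a31, whose genotype effect was higher by 1.59 on the log2 scale on the HFS diet than on chow (SE 0.46, 95% interval 0.58 to 2.61, unadjusted p = 0.00534 in edgeR, adjusted p = 0.659). For Cyp4a14 the difference was 0.64 (SE 0.61, edgeR adjusted p = 0.904) and for Cyp4a12a 0.68 (SE 0.56, edgeR adjusted p = 0.898), so a difference between the diets was not shown for either gene. The Cyp4f genes had differences of -0.35 to 0.15, with intervals from -0.83 to 0.73.

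The rest of the pathway was read from gene lists, whose counts can be set beside those over all 13303 genes tested. Between genotypes on chow and on the HFS diet, edgeR called 4.75% and 4.08% of all genes and DESeq2 1130 and 1007 genes. An unadjusted p under 0.05 in edgeR was held by 2561 and 2322. For diet in Xbp1 fl/fl and in Xbp1 LKO, edgeR called 0.428% and 0.0601% and DESeq2 181 and 213 genes. There 1190 and 1683 had an unadjusted p under 0.05. Of 12 other Cyp4 genes, 3 had enough counts to be tested (Cyp4b1, Cyp4f16 and Cyp4f17), and the highest count of the remaining 9 in any library was 12. Cyp4f17 rose in chow-fed Xbp1 LKO hepatocytes (log2 fold change 0.65, SE 0.16, edgeR adjusted p = 0.0362) and had 0.24 (SE 0.14, edgeR adjusted p = 0.446) on the HFS diet. The part of the lower marker sums above in this and the other list values was not tested. The level of Cyp4f17 was 9.43 to 17.6 CPM over all libraries.

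Omega-oxidation partners, which carry electrons to the P450 (Por, Cyb5a), oxidise the alcohol and aldehyde (Adh and Aldh genes) and break down the dicarboxylic acid in peroxisomes (Ehhadh, Abcd3), numbered 34, all tested. On chow 0 were higher and 1 was lower in Xbp1 LKO hepatocytes: Acsl5, a long-chain acyl-CoA synthetase (log2 fold change -1.06, SE 0.23, edgeR adjusted p = 0.025). On the HFS diet 0 were higher and 1 lower: Acsm5, a medium-chain acyl-CoA synthetase (-0.49, SE 0.12, edgeR adjusted p = 0.0492). The list medians were -0.097 and 0.059, and 9 partners had an unadjusted p under 0.05 in each comparison (2561 and 2322 of all 13303 genes). DESeq2 called 0 higher and 3 lower on chow, and 2 higher and 1 lower on the HFS diet. For diet, edgeR called 0 partners in either genotype, with 5 in Xbp1 fl/fl and 3 in Xbp1 LKO at an unadjusted p under 0.05, and DESeq2 called 1 and 0. The partners positive for diet were 19 in Xbp1 fl/fl (median 0.032) and 26 in Xbp1 LKO hepatocytes (median 0.17).

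Of 40 tested PPARα targets other than the Cyp4 members, 1 was higher and 1 lower in Xbp1 LKO hepatocytes on each diet. Retsat, a retinol saturase, fell by 2.36 on chow (SE 0.34, edgeR adjusted p = 0.00449) and by 1.83 on the HFS diet (SE 0.28, edgeR adjusted p = 0.00537) on the log2 scale. Acot2, a mitochondrial acyl-CoA thioesterase with a close copy in Acot1, rose by 2.10 (SE 0.38, edgeR adjusted p = 0.0108) and by 1.41 (SE 0.35, edgeR adjusted p = 0.046). On the HFS diet 30 of the 40 had a positive log2 fold change between the genotypes and the median was 0.23, against 0.0083 for all genes; on chow it was 21 of 40 and 0.035. DESeq2 called 3 PPARα targets on chow and 5 on the HFS diet (1130 and 1007 of all 13303 genes). At an unadjusted p under 0.05 in edgeR there were 6 on chow and 14 on the HFS diet (2561 and 2322 of all 13303 genes). For diet, edgeR and DESeq2 called 0 in either genotype, with 6 in Xbp1 fl/fl and 8 in Xbp1 LKO at an unadjusted p under 0.05. In Xbp1 LKO hepatocytes 32 of the 40 were positive for diet and the median was 0.19, against -0.0027 for all genes. In Xbp1 fl/fl hepatocytes it was 20 of 40 and 0.012. The contrasts with the tilt, between genotypes on the HFS diet and between diets in Xbp1 LKO, share the same HFS-fed Xbp1 LKO libraries. They are therefore not independent of each other.

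**Figure D5:**
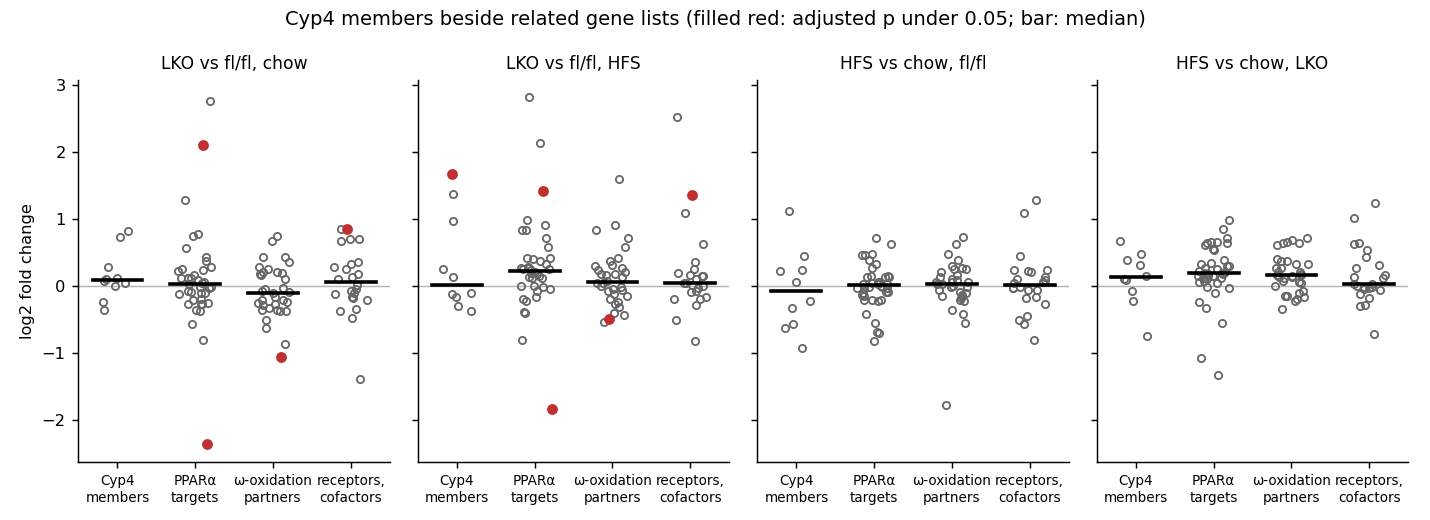
Log2 fold change (points; filled red where the edgeR adjusted p was under 0.05; bars are medians) of the 10 Cyp4 members, 40 PPARα targets, 34 omega-oxidation partners and 24 receptors and cofactors in 4 comparisons, with sideways scatter added for legibility. Few points are filled in any list, and Cyp4a31 lies at the top of the members in Xbp1 LKO against Xbp1 fl/fl on the HFS diet.

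Among 24 nuclear receptors and cofactors, 1 rose in each genotype comparison: Stat5a, which relays growth hormone signals, on chow (log2 fold change 0.85, SE 0.20, edgeR adjusted p = 0.0327), and Pparg, a receptor that drives lipid storage, on the HFS diet (1.35, SE 0.25, edgeR adjusted p = 0.0138). At an unadjusted p under 0.05 there were 6 of the 24 in each genotype comparison, and DESeq2 called 1 higher and 1 lower on chow and 2 higher and 1 lower on the HFS diet. Ppara itself was at 193 to 301 CPM over all 11 libraries and did not pass in edgeR in any comparison. For diet, edgeR called 0 genes of this list in either genotype, with 3 in Xbp1 fl/fl and 5 in Xbp1 LKO at an unadjusted p under 0.05, and DESeq2 called 1 and 0.

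Because several Cyp4a genes are known to differ between male and female mice, sex-biased liver genes were listed too. Of 20 male-biased genes other than the members, 4 fell in Xbp1 LKO hepatocytes on chow (Serpina12, C9, C8a and Mup3) and 3 on the HFS diet (C8a, C8b and Selenbp2), and 0 rose. DESeq2 called 4 lower on chow and 6 lower on the HFS diet, and 0 higher on either. At an unadjusted p under 0.05 in edgeR there were 6 male-biased genes on chow and 7 on the HFS diet. C9, C8a and C8b encode terminal complement proteins, and C8a fell by 1.10 on chow (SE 0.23, edgeR adjusted p = 0.022) and by 1.04 on the HFS diet (SE 0.20, edgeR adjusted p = 0.0169) on the log2 scale. Of 15 female-biased genes other than the members, Cyp2b9 rose with knockout on chow (3.73, SE 0.87, edgeR adjusted p = 0.0343). On the HFS diet Cyp2a4 (3.60, SE 0.40, edgeR adjusted p = 0.00163) and Slc22a27 (2.19, SE 0.44, edgeR adjusted p = 0.0206) rose with knockout and Cyp2b10 fell by 2.76 (SE 0.56, edgeR adjusted p = 0.0206). With the HFS diet Cyp2b9 rose in Xbp1 fl/fl (5.49, SE 0.79, edgeR adjusted p = 0.0166) and Cyp2a4 in Xbp1 LKO hepatocytes (4.02, SE 0.48, edgeR adjusted p = 0.0225). Cyp2a4, the Cyp2b genes, Mup3 and Selenbp2 have close copies and share the doubt about split reads. Without the members, the male-biased list had medians of -0.35 on chow and -0.23 on the HFS diet between genotypes. The female-biased list had medians of 0.95 and 0.80, against 0.0024 and 0.0083 for all genes. The genes at these medians had low mean levels of 0.73 and 0.45 CPM over all libraries. Neither was called (edgeR adjusted p = 0.593 on chow and 0.537 on the HFS diet), and the called Slc22a27 was at 0.87 CPM. Between genotypes, 6 female-biased genes on chow and 8 on the HFS diet had an unadjusted p under 0.05 in edgeR. For diet in Xbp1 fl/fl and Xbp1 LKO the medians were 0.17 and 0.185 (male-biased) and 0.13 and 0.66 (female-biased). The male-biased members Cyp4a12a and Cyp4a12b and the members listed as female-biased, Cyp4a10 and Cyp4a14, did not pass in any of these comparisons.

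The genes whose pattern over the 11 libraries was most like that of Cyp4a14, by the root mean square difference of log2 CPM after each gene was centred on its mean, were Slc22a29 (0.37), Cd86 (0.41), 1110028F11Rik (0.41) and Zfp493 (0.42), where the median over all genes was 0.83. For Cyp4a12a they were Gm37691 (0.26), Fancb (0.29), C730034F03Rik (0.29) and Rasa2 (0.30), with a median of 0.67. Their mean levels were 0.26 to 4.53 CPM, far below those of the Cyp4 genes, and the likeness is a description of these libraries.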

How the data were processed

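RNA of isolated hepatocytes was sequenced as 50 bp single-end reads. The authors deposited whole-number counts per Ensembl gene for each library, not normalized. The study's methods name kallisto with tximport, whereas the submitters' processing notes name cutadapt 1.13, STAR, HTSeq 0.6.1p1 and DESeq2 on mm10, so how reads shared by near-copies were assigned is uncertain. Symbols and positions came from GENCODE M21 (GRCm38), which held 54165 of 54232 identifiers. Groups came from the sample labels. Chi-square per degree of freedom between libraries of 1 group was 25.4 to 91.5, so no library was a repeat of another and counting error is the smaller part of the spread.

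TMM factors, CPM and tests were from edgeR 4.0.16 (R 4.3.3): genes passing filterByExpr (minimum count 10) entered 1 quasi-likelihood fit with a mean for each of the 4 groups over the 11 libraries, with Benjamini-Hochberg adjustment over 13303 genes and a threshold of 0.05. SE is the absolute log2 fold change over the square root of F. Shared 50-base stretches, coding alignments (Biopython 1.88) and exon lengths came from GENCODE M21. DESeq2 1.42.0, other scalings and filters, summed near-copies, a replicate block and single libraries left out were alternatives. The code was tested on simulated counts. The members and lists were chosen with earlier results of these data known. Named are all members, list genes past the threshold (up to 4 per list and comparison, by smallest p), Xbp1, and the 4 genes most like Cyp4a14 and Cyp4a12a; Cpt1b and Es31 were not tested, and genes named as examples of a list's content, Ppara and markers are outside that rule.

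Replicate numbers are shared between groups in the sample titles but mark different mice; deviations of the 15 same-numbered pairs correlated at -0.20 to 0.23, so libraries were not treated as paired.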

Additional observations from a re-analysis of the deposited data

Results flagged for a closer look

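Cyp4a12b was flagged because the Xbp1 LKO libraries differed from the Xbp1 fl/fl libraries in opposite directions on the 2 diets. The mean log2 CPM was higher by 0.99 in Xbp1 LKO on chow and lower on the HFS diet, at -0.37. The interaction term of the edgeR model gave a difference of -1.19 (SE 0.56, 95% interval -2.40 to 0.031, unadjusted p = 0.0552, adjusted p = 0.812), so the difference did not pass a test. With Cyp4a12a and Cyp4a12b added together, the interaction was 0.25 (SE 0.53, edgeR adjusted p = 0.964), in the other direction.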

How the results depend on the processing

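The cause of each change below was not tested unless it is stated. Leaving out the filter on low counts raised the members called to 2 (genotype, chow), 3 (genotype, HFS diet), 3 (diet, Xbp1 fl/fl), 2 (diet, Xbp1 LKO) and 2 (interaction), while genes called rose to 1507, 1438, 499, 722 and 269 of 26016. Library totals in place of TMM factors, which shift the median log2 fold change of all genes by 0.33 on chow and 0.27 on the HFS diet and call 3000 genes (2685 higher) and 1483 (1288 higher) against 632 (230 higher) and 543 (256 higher), gave 1 member on chow (Cyp4f13, 0.45) and 2 on the HFS diet (Cyp4a31 and Cyp4a14), and turned Cyp4a10 on chow to 0.071 and, on the HFS diet, Cyp4a32 to 0.13, Cyp4f13 to 0.092 and Cyp4v3 to 0.16. Fitting only the groups compared gave 2 members on the HFS diet. DESeq2 called 1130, 1007, 181, 213 and 29 genes, in the order above, but as many members as edgeR in each comparison. DESeq2 and RLE size factors turned Cyp4a32 on chow to -0.0020 and -0.0032, by under 0.01.

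The replicate block, for numbers that are shared but do not pair the libraries (4 of 11 libraries correlated best with their own number), gave 2 members on the HFS diet, Cyp4a31 and Cyp4a14 (1.50, edgeR adjusted p = 0.0253), changed no other count of members, and turned Cyp4a12a for diet in Xbp1 LKO to -0.043.

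Adding the near-copies, which by construction gives each copy the value of the sum and so no count of members, turned Cyp4a31 and Cyp4a32 on chow to -0.20, Cyp4a12b to 0.63 and Cyp4a32 to 0.19 on the HFS diet, Cyp4a12b for diet in Xbp1 fl/fl to -0.17, Cyp4a12b to 0.080 and Cyp4a32 to 0.11 for diet in Xbp1 LKO, and Cyp4a12b to 0.25 and Cyp4a32 to 0.39 for the interaction.

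With each library left out in turn, the members called on the HFS diet between genotypes were 0 to 1 (0 without Xbp1 fl/fl library 2 or 3 or Xbp1 LKO library 3) and 0 in every fit of the other 4 comparisons; where 1 chow-fed Xbp1 LKO library was left, it was assumed to vary like the other groups. Uncalled log2 fold changes that changed sign ranged, between genotypes on chow, from -0.60 to 0.045 (Cyp4a10), -0.058 to 0.85 (Cyp4a12a), -0.11 to 0.46 (Cyp4a31), -0.22 to 0.48 (Cyp4a32), -0.050 to 0.28 (Cyp4f13), -0.23 to 0.38 (Cyp4f14) and -0.15 to 0.23 (Cyp4f15), and on the HFS diet from -0.12 to 0.40 (Cyp4a10), -0.25 to 0.036 (Cyp4a32) and -0.22 to 0.023 (Cyp4v3). For diet they ranged in Xbp1 fl/fl from -0.49 to 0.041 (Cyp4a10) and -0.80 to 0.028 (Cyp4a14), and in Xbp1 LKO from -0.13 to 0.50 (Cyp4a10), -0.069 to 0.27 (Cyp4a12a), -0.24 to 0.14 (Cyp4a12b), -0.042 to 0.81 (Cyp4a14) and -0.078 to 0.30 (Cyp4f15). For the interaction they ranged from -0.60 to 0.098 (Cyp4a32) and -0.13 to 0.48 (Cyp4f14). Cyp4a31, Cyp4a14 and Cyp4a12a stayed positive between genotypes on the HFS diet in all 14 alternatives, at 0.19 to 1.96, 1.15 to 1.85 and 0.63 to 1.23. The 0.19 and 0.63 are values of the summed near-copies. Counted alone, the lowest were 1.47 for Cyp4a31 and 0.75 for Cyp4a12a. Groups of 2 or 3 libraries limit the precision of every value, and 153 to 858 counts lay behind Cyp4a31 on the HFS diet.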
